A study of Mus musculus with 8 samples.

Results

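Peroxisome proliferator-activated receptors (PPARs), retinoid X receptors (RXRs), estrogen-related receptors (ERRs) and the PGC-1 coactivators control much of the transcription of fuel metabolism in the heart. The members described here are the 10 genes Ppara, Ppard, Pparg, Rxra, Rxrb, Rxrg, Ppargc1a, Ppargc1b, Esrra and Esrrg, found by their Entrez identifiers among the 27179 genes of the count table. They were measured by RNA-seq in neonatal cardiomyocytes (NCMs) of 8 mice. All 10 passed the filter on low counts, which kept 14966 genes.

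PPARs are nuclear receptors that fatty acids and their derivatives bind, and they act on DNA as pairs with an RXR. ERRs are related receptors that work without a known natural hormone and take their activity largely from PGC-1 alpha and PGC-1 beta, which Ppargc1a and Ppargc1b encode. In the heart PPAR alpha drives fatty acid uptake and oxidation, ERR alpha and ERR gamma drive mitochondrial energy genes, and the program as a whole rises around birth as the heart turns from glucose and lactate to fat.

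Each library came from the NCMs of 1 male C57Bl/6J heart collected on postnatal day 0. The dams were mated in filtered air (FA) and then assigned to FA (4 libraries, replicates 2, 3, 4 and 6) or diesel exhaust (DE, 4 libraries, replicates 1, 3, 5 and 7). The exposure period ran from E0.5 to E17.5 of gestation, with no other treatment named. Within it the study gave DE for part of the day from Monday to Friday, not continuously. The comparison asks what exposure in the womb leaves in the RNA of newborn heart muscle cells. Atria were trimmed off, and cardiomyocytes were separated from fibroblasts by letting the latter attach to plastic for 1 h with Ara-C, so cells of other types could remain. The sample names of all FA libraries and of DE replicates 1 and 7 hold the number 11, and those of DE replicates 3 and 5 hold 12, whose meaning and relation to litters are not given in the sources used here.

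The libraries held 17943024 to 39839737 counts. The members were counted at 15 to 8688 fragments in a library, with only Rxrg below 100. Levels are given in CPM (counts scaled to a common library total) after TMM normalization, a scaling that makes the bulk of genes equal between libraries, and gene positions are those of GRCm38.p6. Of the 12 cardiomyocyte markers examined, all were present, at 77832.5 to 83207 CPM in sum in FA and 66248.3 to 76937.1 CPM in DE. Of the 12, 10 had an estimate below 0 and 2 above 0, with a median log2 fold change of -0.11. In edgeR's quasi-likelihood test 5 had an unadjusted p under 0.05, beside 25.6% of all tested genes. After adjustment 1 was called lower (Myh6, 23299 CPM in FA and 14622 CPM in DE) and 1 higher (Myh7, 10022 and 14494 CPM), both named after their values were seen. The 8 fibroblast markers summed to 2008 to 3461 CPM in FA and 3655 to 6177 CPM in DE, higher in every DE library, with 2 of the 8 called. In RNA from a mixture of cells, fewer cells of a type and less RNA per cell cannot be told apart.

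The 8 receptors among the members read DNA through the core hexamer AGGTCA, or its reverse complement TGACCT. The stretches below are those in which the start regions of the member genes themselves carry it, and they are shown because this is the letter pattern that the receptors, though not the PGC-1 coactivators, bind. They come from RefSeq on GRCm38.p6 and run 5′ to 3′ on the plus strand, which is the strand of these genes, with the hexamer in capitals.
Pparg, chr6:115361104-115361133, hexamer 28 bases before the start at 115361144: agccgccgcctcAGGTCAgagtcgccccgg
Pparg, chr6:115362328-115362357, hexamer 9 bases before the start at 115362349: agggacgcgaggAGGTCAagaaggggcctg
Rxra, chr2:27709193-27709222, hexamer 87 bases before the start at 27709292: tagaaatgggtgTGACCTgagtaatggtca
Rxra, chr2:27709232-27709261, hexamer 48 bases before the same start: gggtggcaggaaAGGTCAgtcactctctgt
Rxrg, chr1:167618165-167618194, hexamer 88 bases before the start at 167618265: atcggggttgaaAGGTCAgctgaaagcttc

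Windows of 300 bases, from 250 before to 50 after a start, were at hand for 9 of the 10 members, all except Ppargc1b, and numbered 17 because several members have more than 1 start. The hexamer was found on either strand in 4 of these 17 windows and in 16.3% of all 32851 windows. The ERR element TCAAGGTCA, which contains the hexamer, was in 0 of the 17 and in 0.423% of all. The direct repeat AGGTCANAGGTCA that PPAR-RXR pairs favour, with no letter allowed to differ, was in 0 of the 17 and in 0.0396% of all. A match to these letters is a description of the window only. The 3 start windows of Pparg held 44, 13 and 2 CG dinucleotides, the single window of Ppargc1a held 5 and that of Ppara 30, beside a median of 7 over all windows. Counts per gene sum over the starts of a gene.

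To place the members on 1 scale, CPM were divided by the length of the merged exons of each gene. Esrra was highest in FA at 42.0 ± 5.56 CPM per kb (SD, n = 4), followed by Ppargc1a at 30.7 ± 4.04 and Rxrb at 15.9 ± 2.19 CPM per kb. The libraries of each of these did not overlap with those of the next in the order. Rxra at 11.4 ± 2.07, Esrrg at 9.53 ± 1.21, Ppara at 9.12 ± 1.56 and Ppargc1b at 8.30 ± 1.90 CPM per kb overlapped with their neighbours. Below them came Ppard at 5.02 ± 0.756, Pparg at 2.39 ± 0.305 and Rxrg at 0.546 ± 0.174 CPM per kb, each apart from the next. In DE the order was the same except that Ppara came before Esrrg, with overlap, and Ppard before Ppargc1b, without overlap (6.29 ± 0.787 and 4.90 ± 0.472 CPM per kb), and Esrra then overlapped with Ppargc1a. With the wider set of exons of the same annotation, Ppargc1a stood above Esrra in both groups (30.1 and 21.4 CPM per kb in FA), and Ppard was at 2.19 CPM per kb, so these places depend on the exons counted.

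**Figure D1:**
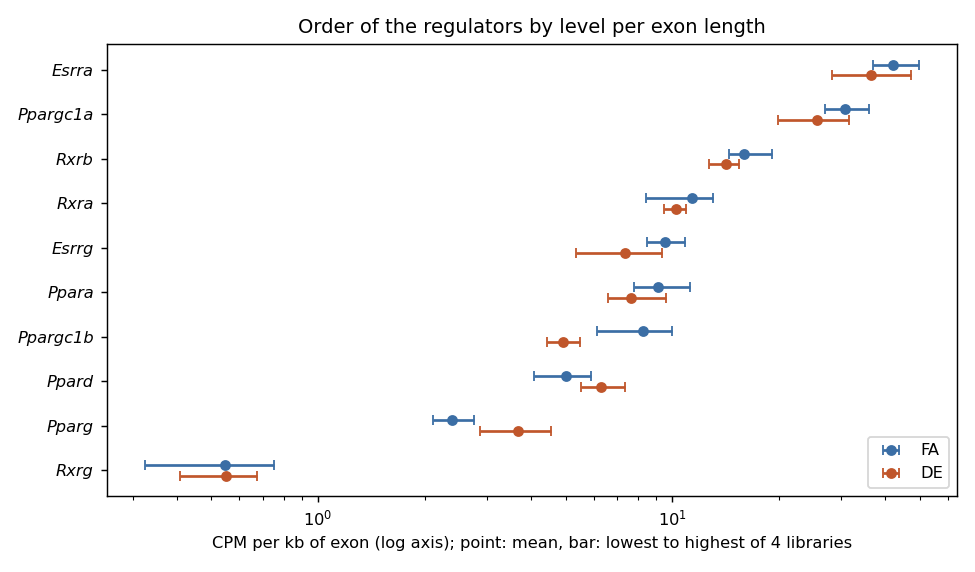
CPM per kb of exon on a log axis for the 10 members, with the mean as a point and the lowest to highest of 4 libraries as a bar, FA in blue and DE in orange. Esrra and Ppargc1a lie highest and Rxrg lowest in both groups, and the bars of FA and DE are apart for Ppargc1b and Pparg only.

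DE NCMs held less Ppargc1b, and this was the 1 member called of 10. A gene was called when its adjusted p was at most 0.05 and it differed by at least 25%. This held for 5.80% of all tested genes, 2.22% lower in DE and 3.58% higher. The split was 332 lower and 536 higher, and it was 217 and 803 when libraries were scaled by their totals and 2007 and 1492 for DE replicates 3 and 5 alone. The estimate was below 0 for 7 members and above 0 for Ppard, Pparg and Rxrg, with a median log2 fold change of -0.19 against 0.00371 over all tested genes. At an unadjusted p under 0.05 there were 4 members (Ppargc1b, Pparg, Ppard and Esrrg), where 25.6% of all tested genes stood. The CPM of FA and DE did not overlap for 2 of the 10, against 14.7% of all tested genes. Of these, Ppargc1b was lower in DE (7.26% of tested genes) and Pparg higher (7.43%). Each of these counts was within 2 genes of what the share among all tested genes would give for 10.

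**Figure D2:**
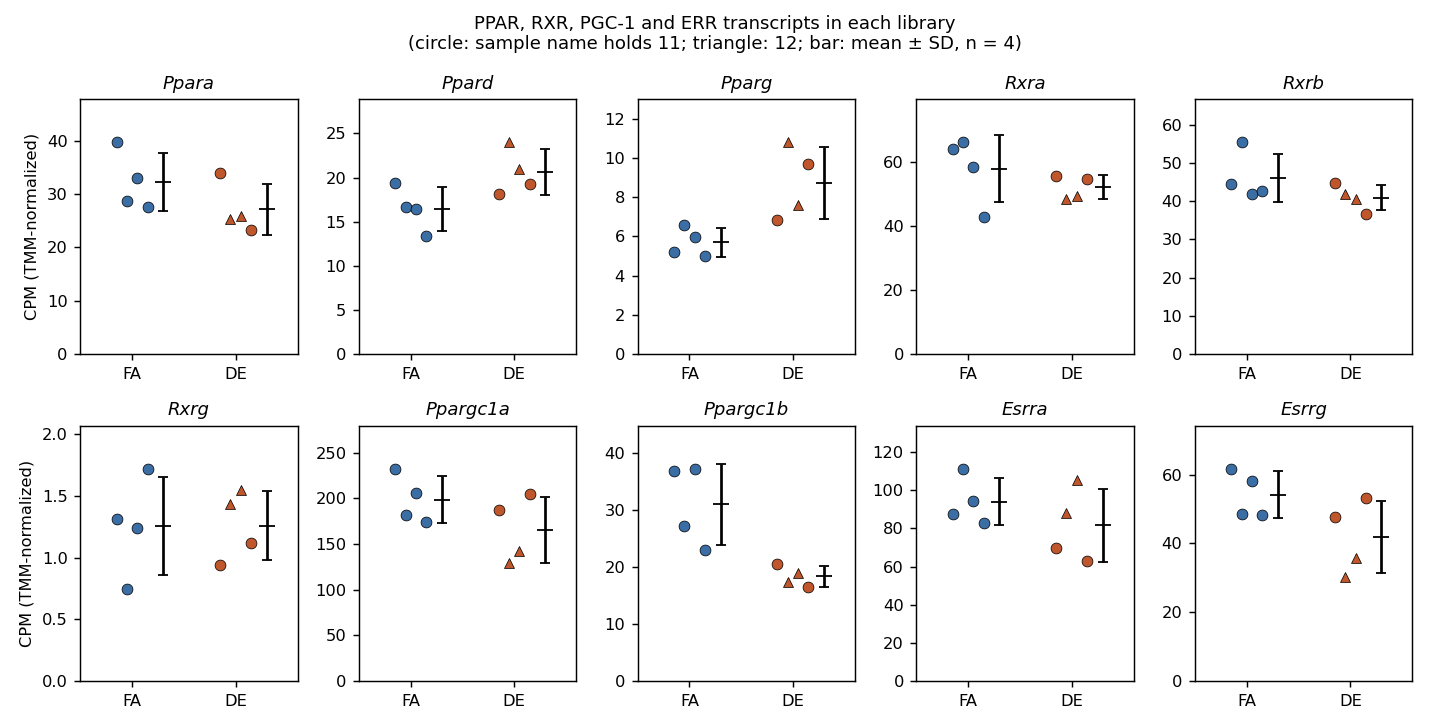
CPM of each member in the 4 FA (blue) and 4 DE (orange) libraries, each panel on its own linear axis from 0, with circles for sample names that hold 11, triangles for 12, and a bar for mean ± SD. Ppargc1b is lower in every DE library than in any FA library, Pparg is higher, and the triangles of Ppargc1a and Esrrg lie below the circles. The DE triangles lie wholly above or below the DE circles in 6 of the 10 members and in 60.2% of all tested genes.

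Among the coactivators, Ppargc1b (Entrez gene 170826, chromosome 18 from 61291445 to 61400756) encodes PGC-1 beta, which raises mitochondrial and fat oxidation genes. It stood at 36.7, 27.2, 37.2 and 22.9 CPM in FA replicates 2, 3, 4 and 6 and at 20.5, 17.3, 18.9 and 16.5 CPM in DE replicates 1, 3, 5 and 7. Every DE library lay below the lowest FA library, and the FA libraries varied more among themselves than the DE libraries did. The means were 31.0 ± 7.10 and 18.3 ± 1.76 CPM (SD, n = 4 each), so that DE held 59.1% of the FA level. The log2 fold change was -0.76, with a standard error of 0.16 and a 95% interval from -1.10 to -0.41 (adjusted p = 0.0224). The estimate stayed between -0.88 and -0.67 in the 16 alternatives, of which 5 did not call it. The call was lost without FA replicate 2 (adjusted p = 0.0791), FA replicate 4 (0.0734) or DE replicate 3 (0.0696). It was also lost with the number in the sample names as a model term (0.0679) and with only the libraries named 11 (0.0939). Both of these compare only DE replicates 1 and 7 with FA, because all FA libraries carry 11. The summed fibroblast markers were higher in every DE library and the summed cardiomyocyte markers lower. Of the 12 cardiomyocyte markers 10 had an estimate below 0, with 1 called lower and 1 higher. The part of these cells in the Ppargc1b values was not tested.

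Ppargc1a (Entrez gene 19017, chromosome 5 from 51454249 to 52115853) encodes PGC-1 alpha, the coactivator that cold, fasting and exercise induce in muscle and fat. It was far more abundant than Ppargc1b, at 232.3, 181.8, 205.8 and 174.5 CPM in the FA libraries in the order above and at 187.4, 128.9, 141.8 and 204.5 CPM in the DE libraries. DE replicates 1 and 7 lay within the FA range, and DE replicates 3 and 5 lay below it. A split of DE replicates 3 and 5 from 1 and 7, without overlap, was found in 6 of the 10 members and in 60.2% of all tested genes. The log2 fold change was -0.26 (standard error 0.16, 95% interval -0.60 to 0.08), and the gene was not called (adjusted p = 0.310). The counts pool all Ppargc1a starts and splice forms.

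The ratio of Ppargc1b to Ppargc1a within a library does not depend on scaling. It was 0.131 to 0.181 in FA and 0.0809 to 0.134 in DE, a shift of -0.46 on the log2 scale that was -0.30 without DE replicate 7 and -0.71 with the libraries named 11. The ranges overlapped slightly, and the exact two-sided permutation test over libraries gave p = 0.0857 (0.229 after Benjamini-Hochberg adjustment over the 8 within-family pairs compared, smallest possible p = 0.0286). With 4 libraries against 4, a single pair could reach no less than 0.229 after this adjustment, so the adjusted values cannot single out a pair. A difference in response between the coactivators was thus neither shown nor excluded by this test.

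Of the PPARs, Pparg (Entrez gene 19016, chromosome 6 from 115360879 to 115490404) is best known as the master regulator of fat cells and is scarce in heart muscle. It stood at 5.19, 6.58, 5.98 and 5.02 CPM in FA replicates 2, 3, 4 and 6 and at 6.84, 10.8, 7.61 and 9.70 CPM in DE replicates 1, 3, 5 and 7. Each DE library exceeded the highest FA library, by little in DE replicate 1. The means of 5.69 ± 0.725 and 8.74 ± 1.84 CPM (SD, n = 4 each) gave a log2 fold change of 0.62 (standard error 0.17, 95% interval 0.25 to 0.99). The adjusted p of 0.0565 was just outside the threshold, and of the 16 alternatives 4 called the gene, among them DESeq2 (adjusted p = 0.0143).
Beside Pparg, the summed fibroblast markers were higher in every DE library, as given above, with 8 of 8 estimates above 0 and 2 called. The adipocyte markers Adipoq, Cfd, Plin1 and Retn were below 1 CPM in every library. The 6 adipocyte markers together summed to 14.5 to 19.6 CPM in FA and 8.47 to 11.1 CPM in DE, most of it Cidea, which was called lower. The 6 leukocyte markers summed to 11.7 to 17.9 CPM in FA and 14.6 to 25.3 CPM in DE, with Adgre1 and C1qa below 1 CPM in every library. The part of other cells in the Pparg values was not tested.

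Ppard (Entrez gene 19015, chromosome 17 from 28232754 to 28301469) encodes the widely expressed PPAR delta, which also acts on fatty acid oxidation genes in muscle. Its levels were 19.4, 16.6, 16.4 and 13.3 CPM in FA and 18.1, 24.0, 21.0 and 19.3 CPM in DE, and FA replicate 2 lay among the DE libraries. The log2 fold change was 0.32 (standard error 0.14, 95% interval 0.03 to 0.62, adjusted p = 0.162), which is not a call.
Ppara (Entrez gene 19013, chromosome 15 from 85734910 to 85806851) encodes PPAR alpha, the main fatty acid sensor of heart and liver. It was at 39.8, 28.8, 33.0 and 27.6 CPM in FA and at 34.0, 25.3, 25.9 and 23.3 CPM in DE. The groups overlapped through DE replicate 1, the highest DE library. The log2 fold change was -0.25 (standard error 0.15, 95% interval -0.58 to 0.07, adjusted p = 0.309), and it was -0.13 without FA replicate 2 and -0.38 without DE replicate 1.

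Within libraries, Ppard reached 0.484 to 0.578 of the Ppara count in FA and 0.533 to 0.949 in DE, and only DE replicate 1 fell in the FA range. The shift of 0.58 on the log2 scale had an exact permutation p of 0.0571 (adjusted over 8 pairs 0.229). The ratio of Pparg to Ppara moved from 0.131 to 0.229 in FA to 0.202 to 0.427 in DE, a log2 shift of 0.85, with DE replicate 1 again in the FA range and the same exact permutation p of 0.0571. Neither passed the threshold, and Pparg against Ppard shifted by 0.27 (exact permutation p = 0.229), or by 0.15 when FA replicate 2 was left out and 0.18 when DE replicate 7 was.

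**Figure D3:**
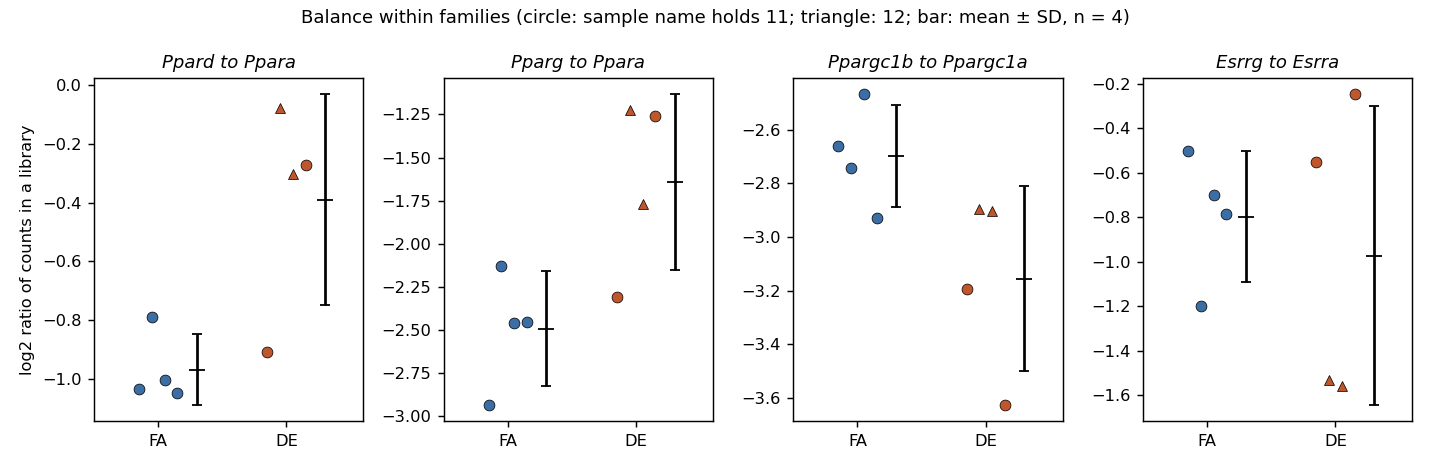
The log2 ratio of counts of 2 family members within each library, FA in blue and DE in orange, with circles for sample names that hold 11, triangles for 12, and a bar for mean ± SD (n = 4). For Ppard to Ppara and Pparg to Ppara 3 of the 4 DE libraries lie above all FA libraries. For Esrrg to Esrra the DE libraries fall apart by the number in their name, as they do in the CPM of 60.2% of all tested genes.

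Of the RXRs, which pair with PPARs as well as with thyroid hormone, retinoic acid and other receptors, none was called. Rxra (Entrez gene 20181, chromosome 2 from 27676445 to 27763319), whose loss is known to disturb heart development, was at 43.0 to 66.4 CPM in FA and 48.4 to 55.9 CPM in DE, the DE libraries lying wholly within the FA range. Rxrb (Entrez gene 20182, chromosome 17 from 34031812 to 34038403) was at 41.8 to 55.5 CPM in FA and 36.7 to 44.8 CPM in DE. The log2 fold changes were -0.15 for Rxra (95% interval -0.45 to 0.14, adjusted p = 0.490) and -0.17 for Rxrb (95% interval -0.42 to 0.08, adjusted p = 0.367).
Rxrg (Entrez gene 20183, chromosome 1 from 167598362 to 167639623) was rare, with 285 counts over the 8 libraries and 0.747 to 1.72 CPM in FA and 0.938 to 1.55 CPM in DE. Its log2 fold change of 0.01 had a 95% interval from -0.57 to 0.60, so a change of up to about this size in either direction is not excluded by these counts and libraries. Within libraries, the 3 ratios among RXRs shifted by -0.03, 0.17 and 0.20 on the log2 scale (exact permutation p of 0.657 or more).

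Esrra and Esrrg encode ERR alpha and ERR gamma, the latter rising in the heart around birth. Esrra (Entrez gene 26379, chromosome 19 from 6910977 to 6922048) was at 87.4, 111.4, 94.6 and 83.0 CPM in FA and 69.9, 88.0, 105.6 and 63.2 CPM in DE replicates 1, 3, 5 and 7. Esrrg (Entrez gene 26381, chromosome 1 from 187608510 to 188214885) was at 61.7, 48.5, 58.2 and 48.1 CPM in FA and 47.7, 30.4, 35.9 and 53.2 CPM in DE. In DE the receptors ran opposite to each other, Esrra being highest and Esrrg lowest in replicates 3 and 5. A split of these replicates from 1 and 7, in either direction, was as common among all tested genes (60.2%) as among the members (6 of 10). The log2 fold changes were -0.20 for Esrra (95% interval -0.55 to 0.15, adjusted p = 0.448) and -0.38 for Esrrg (95% interval -0.75 to -0.01, adjusted p = 0.189), and neither was called. Within libraries, Esrrg stood at 0.435 to 0.706 of the Esrra count in FA and at 0.340 to 0.843 in DE (log2 shift -0.18, exact permutation p = 0.686, adjusted over 8 pairs 0.771). Exons of Esrra share 73 bases with Trmt112 on the opposite strand and 91 with Mir6990 on its own, 1.66% and 2.07% of its exon bases, and whether the counting used strand is not given in the sources used here.

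Because the FA libraries all carry the number 11, the DE libraries of each number were also compared with FA in a fit of 3 groups, chosen after the data were seen. Against FA, DE replicates 3 and 5 gave 5 called members of 10, where 23.4% of all tested genes were called. These were Ppargc1b (-0.78, adjusted p = 0.0152), Esrrg (-0.71, adjusted p = 0.00583), Ppargc1a (-0.55, adjusted p = 0.0140), Ppard (0.45, adjusted p = 0.0414) and Pparg (0.70, adjusted p = 0.0238). DE replicates 1 and 7 gave 0 called members of 10 (2.99% of all tested genes called). Because the number varies only within DE, this contrast is identical to the fit with the number as a model term and is no further result. Ppargc1b kept its size in them (-0.74, adjusted p = 0.0679), as did Pparg within its error (0.53, adjusted p = 0.187), while Ppargc1a (-0.02) and Esrrg (-0.10) lay near 0 and Esrra was at -0.50 (adjusted p = 0.0813).
Between the DE libraries themselves, replicates 3 and 5 differed from 1 and 7 by -0.61 for Esrrg (adjusted p = 0.0649), -0.53 for Ppargc1a (adjusted p = 0.0823) and 0.54 for Esrra (adjusted p = 0.0890), none of them past the threshold. For Ppargc1b this difference was -0.04 (standard error 0.22) and for Pparg 0.17 (standard error 0.22). Over all genes, 2.06% were called between the DE libraries of different numbers, and 23.3% had an unadjusted p under 0.05 in this quasi-likelihood test. Among the members, only Esrrg (0.00227), Ppargc1a (0.00440) and Esrra (0.00529) were under it. The meaning of the number is not known, and its part cannot be told apart from other differences between these pairs of DE libraries.
Among the FA libraries, Ppara, Ppargc1a, Ppargc1b and Esrrg were each higher in replicates 2 and 4 than in replicates 3 and 6. This order held for 4 of the 10 members and for 27.7% of tested genes. FA replicates 2 and 4 had the highest and the lowest total count of the FA group and were the closest pair of all 12 pairs within a group (chi-square of 5.37 per gene, the others 17.1 to 67.4).

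**Figure D4:**
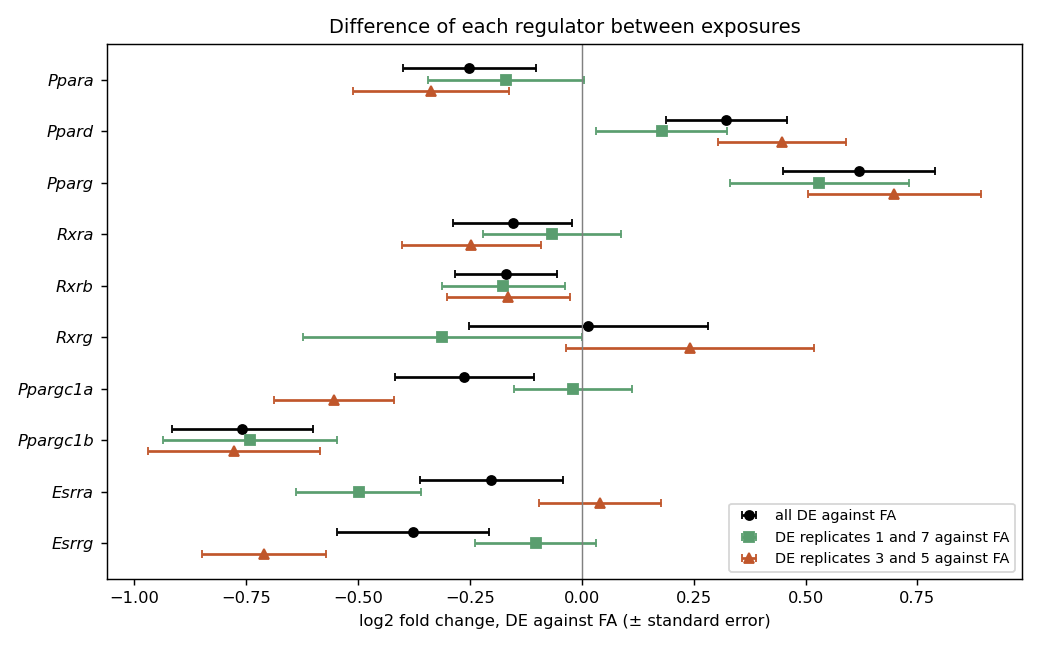
Log2 fold change (± standard error) of each member for all 4 DE libraries against FA (black circles), DE replicates 1 and 7 against FA (green squares) and DE replicates 3 and 5 against FA (orange triangles). Ppargc1b lies between -0.78 and -0.74 and Pparg between 0.53 and 0.70 in the 3 comparisons, while Ppargc1a, Esrrg and Esrra differ by the DE libraries used.

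Most of the genes that PPAR alpha is known to switch on were lower in DE. Of 42 listed targets 35 were tested, and 27 of these were called, all lower, where 2.22% of all tested genes were called lower. Their median log2 fold change was -0.88, against 0.00371 for all tested genes and -0.19 for the 10 regulators. The list was written with earlier results of these data known and shares genes with those the study chose on these libraries, so its direction is no independent evidence. The marker sums of cardiomyocytes and of fibroblasts differed between the same libraries as given above. Of the 12 cardiomyocyte markers 10 had an estimate below 0, with 1 called in each direction. The part of these cells in the fall of the targets was not tested.
The largest fall of the list was that of Ucp3, a mitochondrial carrier that responds to fatty acids, from 8.95 to 11.3 CPM in FA to 0.143 to 0.363 CPM in DE. This is a log2 fold change of -5.47 with a standard error of 0.25 (adjusted p = 1.28e-06). Retsat, a retinol saturase, fell from 50.1 ± 4.41 to 22.6 ± 1.22 CPM, Slc25a20, the carnitine-acylcarnitine carrier, from 138.4 ± 12.5 to 63.8 ± 4.12 CPM, and Etfdh, which passes electrons from fat oxidation to the respiratory chain, from 519.7 ± 10.8 to 279.2 ± 8.09 CPM (SD, n = 4 each). No library of one group overlapped with the other for these 4 genes.
Acot1, Acot2, Cpt1a and Mlycd, the others of the 8 with the smallest p, had log2 fold changes of -2.25, -1.798, -1.49 and -1.24. Acot1 and Acot2 are near-identical copies whose reads may have been shared out wrongly. Of the 8 targets that were not called, Lpl (-0.07, adjusted p = 0.731) and Acadm (-0.29, adjusted p = 0.0836) were the most abundant, and Mgll (0.45, adjusted p = 0.117) and Acaa1a (0.09, adjusted p = 0.727), named after their values were seen, had estimates above 0.
In DE replicates 1 and 7 alone, where no regulator was called, 27 targets were called against FA, all of them lower. In DE replicates 3 and 5 there were 28, of which 27 were lower, in a fit that called 23.4% of all tested genes against 2.99% for DE replicates 1 and 7. The count of called targets stayed between 26 and 28 in the 16 alternatives.

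Targets of ERR and PGC-1 in the tricarboxylic acid cycle, the respiratory chain and mitochondrial upkeep were also examined. Of 37 tested genes 2 were called, both lower (5.41%, beside 2.22% of all tested genes called lower), and 10 did not overlap between the groups (14.7% of all tested genes). Their median difference was -0.11 on the log2 scale, and 29 of the 37 had an estimate below 0. Perm1, which PGC-1 and ERR induce in muscle, fell from 117.9 ± 12.4 to 82.3 ± 9.90 CPM (log2 fold change -0.52, adjusted p = 0.0274). Mfn2, a fusion protein of the outer mitochondrial membrane, fell from 568.1 ± 34.2 to 427.5 ± 28.7 CPM (log2 fold change -0.41, adjusted p = 0.0300). Of the 16 alternatives, Perm1 was not called in 4 (without FA replicate 2 or 3, or DE replicate 3 or 7). Mfn2 was not called in 7, with the number in the sample names as a term, with the libraries named 11, and without FA replicate 2, 4 or 6, or DE replicate 3 or 5. The most abundant genes of the list, Atp5b and Atp5a1 of ATP synthase, had log2 fold changes of -0.12 and -0.14 (adjusted p = 0.487 and 0.384). Summed cardiomyocyte markers were lower and summed fibroblast markers higher in every DE library, and their part in the values of this list was not tested.

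The 21 coactivators and corepressors of these receptors had a median log2 fold change of -0.20, with 18 estimates below 0. In edgeR's quasi-likelihood test 0 of them were called, while 4 had an unadjusted p under 0.05 (5.80% and 25.6% of all tested genes). DESeq2 and the likelihood ratio test each called 2, where they called 1633 and 1603 of all genes. Ncor1, a corepressor, and Prmt1, a methyltransferase that modifies coactivators, were the most abundant, with log2 fold changes of -0.35 (adjusted p = 0.191) and -0.03 (adjusted p = 0.918).
Of 12 tested genes that supply or carry the receptors' ligands, 3 were called, 2 higher and 1 lower, beside 5.80% of all tested genes. Lipe, hormone-sensitive lipase, which frees fatty acids, fell from 20.1 ± 1.54 to 9.47 ± 0.927 CPM (log2 fold change -1.09, adjusted p = 0.000552). Fabp5, a fatty acid binding protein known to deliver ligands to PPAR delta, rose from 32.6 ± 8.11 to 68.1 ± 19.7 CPM (log2 fold change 1.07, adjusted p = 0.0197). The call of Fabp5 was lost in 5 of the 16 alternatives, with the number as a term, with the libraries named 11, and without FA replicate 2 or 4 or DE replicate 3, and its log2 fold change ranged from 0.67 to 1.23 over the 16. The most abundant uncalled genes were Fabp4 (0.25, adjusted p = 0.464), which endothelial cells and adipocytes also express, and Pnpla2, adipose triglyceride lipase (-0.35, adjusted p = 0.117). Fibroblast markers were higher in the same DE libraries, and their part in these values was not tested.

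**Figure D5:**
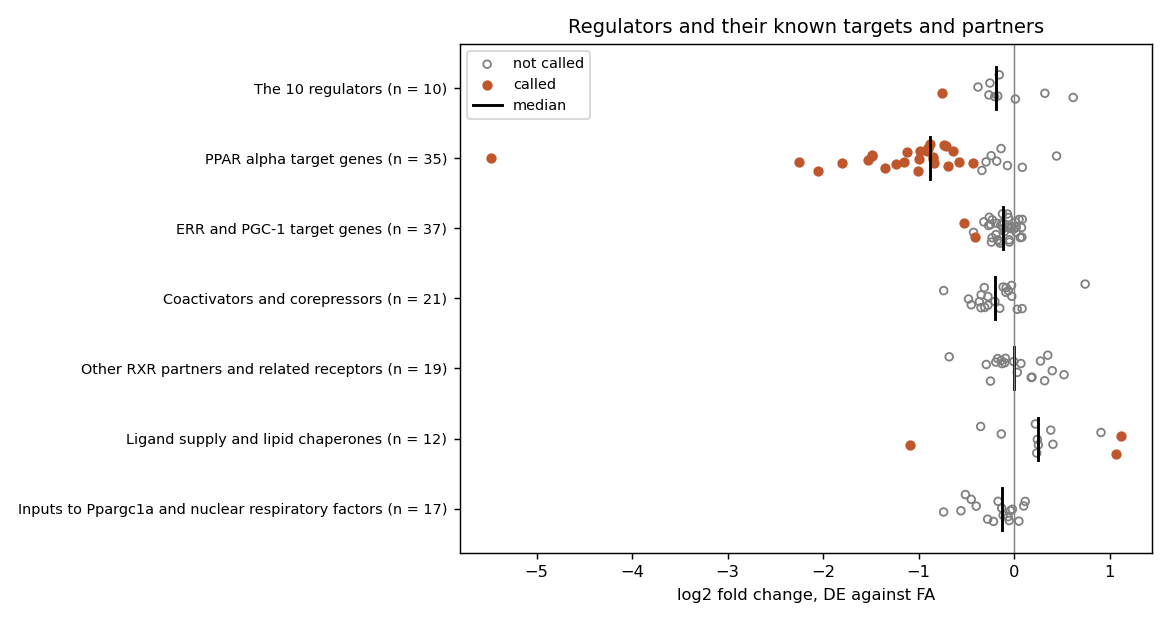
Log2 fold change (DE against FA) of each tested gene in the 10 regulators and in 6 lists of their targets and partners, with called genes filled, others open and the median as a vertical line. The PPAR alpha targets lie mostly below 0 with a median of -0.88, while the medians of the other lists lie between -0.20 and 0.25.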

How the data were processed

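RNA of NCMs from 8 male neonates (4 FA, 4 DE) was sequenced after poly-A selection with a stranded kit. The study's methods give a smaller number of libraries per group than the 4 deposited, and all 8 were used. The authors aligned reads to mm10 and an Ensembl transcriptome with TopHat, flagged duplicates but kept them, and used featureCounts. The deposited counts are raw fragment numbers per Entrez gene. The versions of TopHat and featureCounts, the strand setting of the counting and handling of multi-mapping reads are not given in the sources used here, and kept duplicates overstate counting precision.
Symbols and positions came from RefSeq on GRCm38.p6, the assembly of mm10 (25275 of 27179 genes matched), and exon lengths from GENCODE M21 basic. Genes were kept by edgeR's filterByExpr (minimum count 10), scaled by TMM, and DE was compared with FA by glmQLFit and glmQLFTest of edgeR 4.0.16 in R 4.3.3. Exposure was the single model term, and p-values were adjusted by Benjamini-Hochberg across the 14966 genes that passed. All adjusted p values of gene differences are from this test unless another is named. Standard errors were taken as the log2 fold change over the root of the F statistic. No 2 libraries of a group were copies (chi-square of at least 5.37 per gene). P-values measure the spread between these hearts, whose litters are not given.
Ratios between family members (counts + 0.5) were tested by exact permutation over libraries. Promoter motifs were searched on both strands. Named genes were the 10 members, from each list the called genes by p (at most 8) and the 2 most abundant uncalled ones, and the 3 genes most similar to a called member. Of the genes this rule selects, 2 are not reported here. Members and lists were chosen with earlier results of these data known. Alternatives used DESeq2 1.42.0, the likelihood ratio test of edgeR, relative log expression factors, library totals, no filter, a mean of at least 1 CPM, a model term for the number in sample names, only libraries named 11, or left out each library. The code was tested on simulated data.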

Additional observations from a re-analysis of the deposited data

How the results depend on the processing

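The count of genes called over all tested genes (868) was 1633 with DESeq2, 1603 with the likelihood ratio test, 448 with the number in the sample name as a term, 260 with the libraries named 11, and 237 to 1168 with single libraries left out. In the fit of 3 groups it was 3499 for DE libraries named 12. For those named 11 it was the same 448, because this contrast and the fit with the number as a term are identical when all FA libraries carry 11. The count of members called (1) was 2 with DESeq2, the likelihood ratio test or library totals, which add Pparg, 0 with the number as a term or the libraries named 11, and 0 to 2 with single libraries left out (0 without FA replicate 2, FA replicate 4 or DE replicate 3, and 2 without DE replicate 1). It was 0 and 5 in the fit of 3 groups. Called PPAR alpha targets (27) stayed at 26 to 28. Called ERR and PGC-1 targets (2) were 1 with the number as a term or the libraries named 11, 1 and 4 in the fit of 3 groups, and 0 to 2 with single libraries left out (0 without FA replicate 2 or DE replicate 3). Called coactivators and corepressors (0) were 2 with DESeq2 or the likelihood ratio test, 9 for DE libraries named 12, and 0 to 1 with single libraries left out. Rxrg changed sign to -0.31 with the number as a term, which is the contrast of DE libraries named 11 with FA, and also with the libraries named 11 alone. It ranged from -0.16 to 0.19 with single libraries left out. Esrra was at 0.0411 for DE libraries named 12. The log2 shift of Esrrg to Esrra (-0.18) was 0.40 with the libraries named 11, and -0.42 to 0.02 with single libraries left out. The shifts among PPARs and of Ppargc1b to Ppargc1a kept their sign in all alternatives run, and those among RXRs, all within 0.5 of 0, did not. With single libraries left out, the other uncalled members had log2 fold changes of 0.23 to 0.41 (Ppard), -0.27 to -0.086 (Rxra), -0.22 to -0.071 (Rxrb), -0.39 to -0.16 (Ppargc1a), -0.35 to -0.10 (Esrra) and -0.52 to -0.25 (Esrrg), none of them called. The cause of these changes was not tested, beyond the smaller number of libraries in fits that leave some out. Scaling by library totals moved the median of all genes by 0.0716 on the log2 scale.
No paired analysis was possible because the groups share only 1 replicate number.
Rxrg had the fewest counts of the members, 15 to 62 in a library, and counting error was not separated from the spread between libraries.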

Other observations

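Receptors outside the 10 members that also pair with RXR or belong to related branches were examined as a list. Of 20 listed, 19 were tested and 0 were called by edgeR's quasi-likelihood test or by DESeq2, while 4 had an unadjusted p under 0.05. Of all tested genes, 5.80% were called and 25.6% had an unadjusted p under 0.05. Their median log2 fold change was -0.002297. Nr1d2, a clock receptor that represses transcription, was the most abundant, with 222.6 ± 35.8 CPM in FA against 187.8 ± 42.5 CPM in DE (log2 fold change -0.25, adjusted p = 0.367). Nr4a1, an immediate early receptor, followed at 131.4 ± 11.7 and 149.7 ± 32.4 CPM (log2 fold change 0.19, adjusted p = 0.441).

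Among 17 kinases and transcription factors known to act on Ppargc1a, or that control nuclear genes of mitochondria, 14 had an estimate below 0 and the median was -0.13. In edgeR's quasi-likelihood test 0 were called, with 5 at an unadjusted p under 0.05 (25.6% of all tested genes), and DESeq2 called 2 (1633 of all genes). Prkaa2, the catalytic AMPK subunit typical of muscle, averaged 379.3 ± 70.4 CPM in FA against 266.7 ± 59.7 CPM in DE (log2 fold change -0.51, adjusted p = 0.101). Mef2a, a muscle transcription factor, was at 237.6 ± 69.6 and 142.7 ± 58.5 CPM (log2 fold change -0.74, adjusted p = 0.135), and the libraries of both genes overlapped between groups. The marker sums of cardiomyocytes were lower and those of fibroblasts higher in every DE library, and their part in these estimates was not tested.

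Among the 3 genes whose profile over the 8 libraries was most like that of Ppargc1b, of 10707 tested genes at a mean of at least 5 CPM, were Rap1gap2 and Fgf1. The root mean square difference of centred log2 CPM was 0.130 for Rap1gap2, which regulates the GTPase Rap1, and 0.133 for Fgf1, a growth factor, beside a median of 0.450 over all these genes. Fgf1 had a log2 fold change of -0.76 (adjusted p = 0.00300) and Rap1gap2 one of -0.54 (adjusted p = 0.0637). Since Ppargc1b was called, genes that share its difference between the groups are favoured by this measure.

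In none of the 20 groups of 4 libraries, 10 members in 2 exposures, did a library stand apart by Dixon's criterion at 95%.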
